A study of Mus musculus with 2 samples.

Results

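Mir221 and Mir222 are microRNA genes of 1 cluster on the mouse X chromosome, and both were measured in embryonic liver. They were taken from the deposited count files as the rows whose Ensembl gene identifiers carry these symbols in the GENCODE mouse annotation, which gave 2 of 1973 counted genes. Small RNA shorter than 30 nucleotides was sequenced from livers of B6NCrl embryos at embryonic day 11.5, with no treatment or genetic change named. There were 2 libraries, each made from pooled male and female embryos, 109 of them for replicate 1 and a number the labels do not state for replicate 2. The libraries formed 1 group, so the data hold levels and the spread between pools, and no comparison of conditions.

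MicroRNAs are short RNAs that guide a silencing complex to messenger RNAs, mainly through pairing of the seed, bases 2 to 8 from the 5′ end. The products of Mir221 and Mir222 share their seed and are best known in blood formation for pairing with the messenger RNA of Kit, the receptor for stem cell factor on erythroid and other blood progenitors. They are reported to fall as erythroid progenitors mature, and outside blood they are known from endothelium and from dividing cells, where Cdkn1b, an inhibitor of the cell cycle, is a reported target. The fetal liver at this stage is a site of definitive erythropoiesis.

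The mature sequences are shown because the shared seed is what joins these genes. They are written 5′ to 3′ with the seed in capitals, from RefSeq on GRCm38.p6, the assembly also called mm10. The table also holds an arm from the 5′ side of the Mir221 hairpin, and Mir1928 is the only other mouse gene in it with the same seed.
miR-221-3p: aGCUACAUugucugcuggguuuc
miR-222-3p: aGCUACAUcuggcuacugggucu
miR-1928: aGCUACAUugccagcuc
miR-221-5p: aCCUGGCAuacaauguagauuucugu

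The 3p sequences of Mir221 and Mir222 are both 23 bases long and agree in the first 8 bases. Counted from 1 at the 5′ end, with the base of miR-221-3p first, the first difference is U9C, and 12 of 23 positions differ in all. A read of either product is therefore told apart by the bases after the seed. Mir1928 shares its first 10 bases with miR-221-3p. Among 1738 mature entries in the table, 3 carry the seed GCUACAU, 1 from each of these 3 genes. Mir1928 had 0 counts in both libraries, which allows up to 0.897 counts per 1000000 assigned counts (CPM) in replicate 1 and 1.89 CPM in replicate 2. In the counted data, reads of this seed group thus came from Mir221 and Mir222, apart from reads that the files place in no gene.

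The hairpins, shown to place the mature product within the counted gene, run 5′ to 3′ with the 3p product in capitals.
Mir221: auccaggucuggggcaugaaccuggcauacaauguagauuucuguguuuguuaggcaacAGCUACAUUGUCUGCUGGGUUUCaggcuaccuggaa
Mir222: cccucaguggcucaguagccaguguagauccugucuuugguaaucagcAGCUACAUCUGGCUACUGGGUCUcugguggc

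Mir221 (ENSMUSG00000065422.1) lies on the minus strand of mm10 at chrX:19146294-19146388 and Mir222 (ENSMUSG00000065471.1) at chrX:19146893-19146971. Mir222 is the upstream gene, and 504 bases lie between them. In GENCODE M21 no other gene covers the cluster, so neither gene is annotated as lying in an exon, intron or UTR. The nearest annotated gene upstream on the same strand is Gm14636, a processed transcript that ends 10010 bases away. No other counted microRNA gene lies within 1000000 bases. Neither hairpin shares 20 consecutive bases with another counted microRNA gene, and neither 3p sequence occurs in full in a transcript of another M21 gene. The counts are per hairpin gene, so reads of the 5p and 3p arms cannot be separated.

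Both genes were expressed at a middle level of the liver's microRNA genes. Mir221 had 1400 counts in replicate 1, which is 419 CPM (95% exact Clopper-Pearson interval 397 to 441), and 414 counts in replicate 2, which is 261 CPM (237 to 288). Mir222 had 763 counts or 228 CPM in replicate 1 (212 to 245) and 268 counts or 169 CPM in replicate 2 (149 to 191). The mean level was 340 ± 111 CPM for Mir221 and 199 ± 41.7 CPM for Mir222 (SD, n = 2). Both genes were lower in replicate 2, and the lower value of Mir221 lay above the higher value of Mir222. Together they made up 0.0647% of the assigned counts in replicate 1 and 0.043% in replicate 2. On the strand opposite to either gene 0 reads were counted, which allows up to 0.817 CPM of the reads counted on either strand in replicate 1 and 1.71 CPM in replicate 2. A read spans a whole microRNA, so CPM values were compared between genes without dividing by length, and how well each sequence is captured by the library chemistry was not tested.

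**Figure D1:**
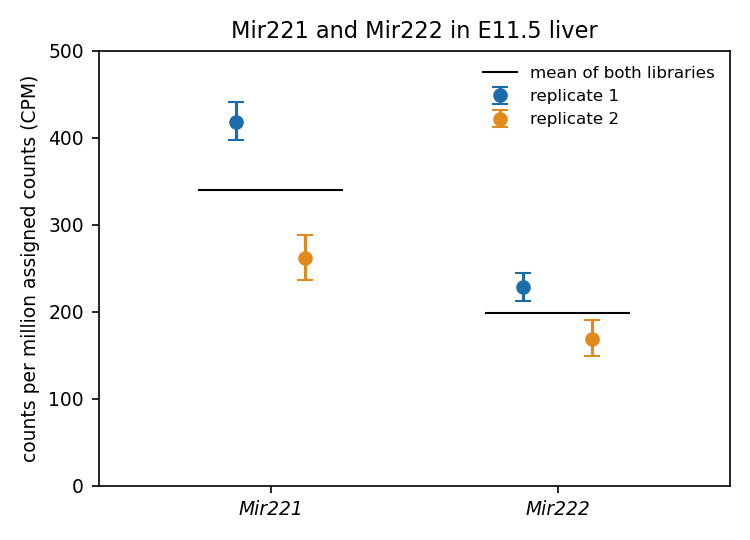
Level of Mir221 and Mir222 in CPM (linear axis from 0), with a point for each library, its 95% exact interval for counting error and a line at the mean of both libraries. Mir221 stands above Mir222 in each library, and replicate 1 stands above replicate 2 for each gene.

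A gene was taken as detected when each library held at least 10 of its counts. Among the 347 detected genes, Mir221 ranked 161 and Mir222 ranked 188 by mean CPM. The median detected gene had a mean of 264 CPM, between the means of the members. By mean, Mir363 stood directly above Mir221 with 333 CPM in replicate 1 and 356 CPM in replicate 2. Mir125b-2 stood directly below with 308 and 363 CPM, and it has a run of 20 or more bases in common with Mir125b-1, so its level can be too low. Around Mir222 the neighbours were Mir3072, above it with 185 and 220 CPM, and Mir3074-1, below it with 199 and 198 CPM. The libraries' values of all 4 neighbours overlapped with those of the member, so none of these steps in the order was resolved. The values of 34 detected genes overlapped with the range of Mir221, and those of 31 with the range of Mir222.

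**Figure D2:**
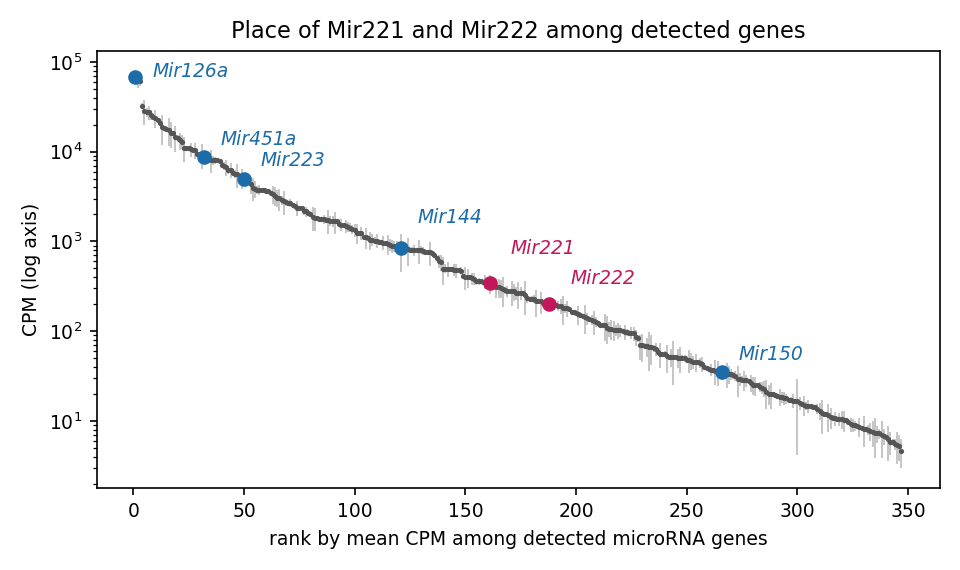
Mean CPM (log axis) of the 347 detected genes in order of rank, with vertical lines from the lower to the higher library. Mir221 at rank 161 and Mir222 at rank 188 lie in the middle of the curve, below the erythroid Mir451a and Mir144 and above Mir150.

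The products of 1 cluster were counted in a similar proportion in both pools. Mir222 had 0.545 times the counts of Mir221 in replicate 1 (95% interval 0.498 to 0.596, from the exact binomial interval of the share) and 0.647 times in replicate 2 (0.553 to 0.757), a mean ratio of 0.596 ± 0.0724 (SD, n = 2). The intervals overlapped. The downstream gene, Mir221, was the more abundant in each library, by 1.83-fold and 1.54-fold.

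This proportion was set beside other neighbouring microRNA genes. Among 69 pairs of detected genes on the same strand and no more than 1000 bases apart, the median pair differed by 7.17-fold in level, and Mir222 and Mir221 by 1.68-fold. In 11 pairs the genes stood closer to each other, and in 57 they stood further apart. The next closer pair was Mir106b and Mir93, which differed by 1.65-fold, and the next wider was Mir92-2 and Mir363, by 1.70-fold, where Mir92-2 has such a run in common with Mir92-1. The log2 ratio within the cluster moved by 0.25 between the libraries, against a median of 0.48 over all pairs, and 13 pairs moved less. The higher gene was the downstream one in both libraries in 31 pairs, the upstream one in 32, and changed between libraries in 6. Pairs in 1 larger cluster share genes, and genes with near copies can be counted too low, so these values are a description with no test.

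**Figure D3:**
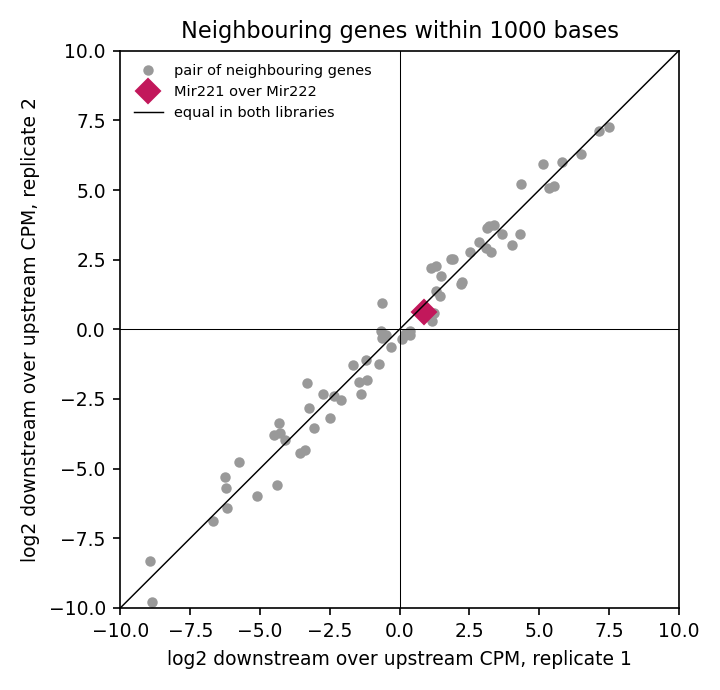
Log2 ratio of downstream over upstream CPM in replicate 1 (x) and replicate 2 (y) for 69 pairs of neighbouring genes, with the line of equal ratios. Mir221 over Mir222 lies near the centre, at 0.88 in replicate 1 and 0.63 in replicate 2.

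Kit itself cannot be read from small RNA, so its messenger RNA is not part of these data, and what its sequence offers the shared seed was read from M21. The motif searched was ATGTAGC, the reverse complement of bases 2 to 8, on the strand of the transcript, in the longest annotated 3′ UTR of each protein-coding gene. The 3′ UTR of Kit was 2177 bases long and held 2 matches, at positions 447 and 1978, on the plus strand at chr5:75654992-75654998 and chr5:75656523-75656529 of mm10. Both were followed by A, the base that extends such a match on the messenger RNA. Each site is shown with its surroundings, the match in capitals, since these are the letters the seeds above would pair with.
Kit, position 447: atgggagatatATGTAGCaagactagaaaa
Kit, position 1978: taaatattgaaATGTAGCaataatgtcttt

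Of 4794 genes with a 3′ UTR at least as long as that of Kit, 15.9% held at least 1 match in the first 2177 bases and 1.42% held 2 or more. A match is a description of sequence, not a measured site.

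Other genes reported as targets were searched in the same way. Of the 8 genes searched, Kit included, 7 held at least 1 match, against 9.45% of all 21037 3′ UTRs of any length; the genes were listed because they are reported targets, and their 3′ UTRs differ in length. Cdkn1b and Cdkn1c, which inhibit cyclin-dependent kinases, held 1 match each, as did Bbc3 and Bmf, which promote cell death, and Timp3, an inhibitor of metalloproteinases. Ets1, a transcription factor of endothelium and lymphocytes, held 2. Foxo3, a transcription factor of stress responses, held 0. The sites of Cdkn1b and Cdkn1c are shown for comparison with those of Kit, from chr6:134924420-134924449 on the plus strand and chr7:143458914-143458943 on the minus strand.
Cdkn1b, position 2357: aaaagcattggATGTAGCattgcgcaatta
Cdkn1c, position 95: acctttcgttcATGTAGCaggaaccggaga

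Other microRNA genes reported to target Kit gave the members a scale. Of 8 listed symbols 7 were names of counted genes and 6 were detected. Mir494, from the imprinted Dlk1-Dio3 region, was the highest, with 2826 CPM in replicate 1 and 1902 CPM in replicate 2, 6.95 times the mean of Mir221. The other 6 lay below both members in each library. Mir193b had 99.6 and 99.7 CPM and Mir34a, a target of p53, 118 and 79.5 CPM. Mir137 averaged 36.6 CPM, Mir218-2 33.2 CPM, Mir193a 9.02 CPM and Mir218-1 7.01 CPM, and the last and Mir218-2 share at least 20 bases with each other. Mir221 thus had 3.41 times the mean level of Mir193b. Of the counts of all 9 genes, Mir221 and Mir222 held 17.1% in replicate 1 and 16.6% in replicate 2.

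The other microRNAs of this group use different seeds, and their matches in Kit differed. The mature sequences of the most abundant, written as above, are shown for contrast with the seed of the members.
miR-494-3p: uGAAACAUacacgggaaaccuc
miR-193b-3p: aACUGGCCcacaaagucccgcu
miR-34a-5p: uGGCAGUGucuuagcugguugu

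In the same 3′ UTR of Kit, the motif of miR-494-3p (ATGTTTC) had 1 match and that of miR-193b-3p (GGCCAGT) had 2. The motif of miR-34a-5p (CACTGCC) had 0, which says only that these letters are not in this window. Windows of the same length held at least 1 match to these motifs in 21.1%, 14.8% and 21.3% of genes. The share with 2 or more was not counted for GGCCAGT, so its 2 matches cannot be set beside those of the members.

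**Figure D4:**
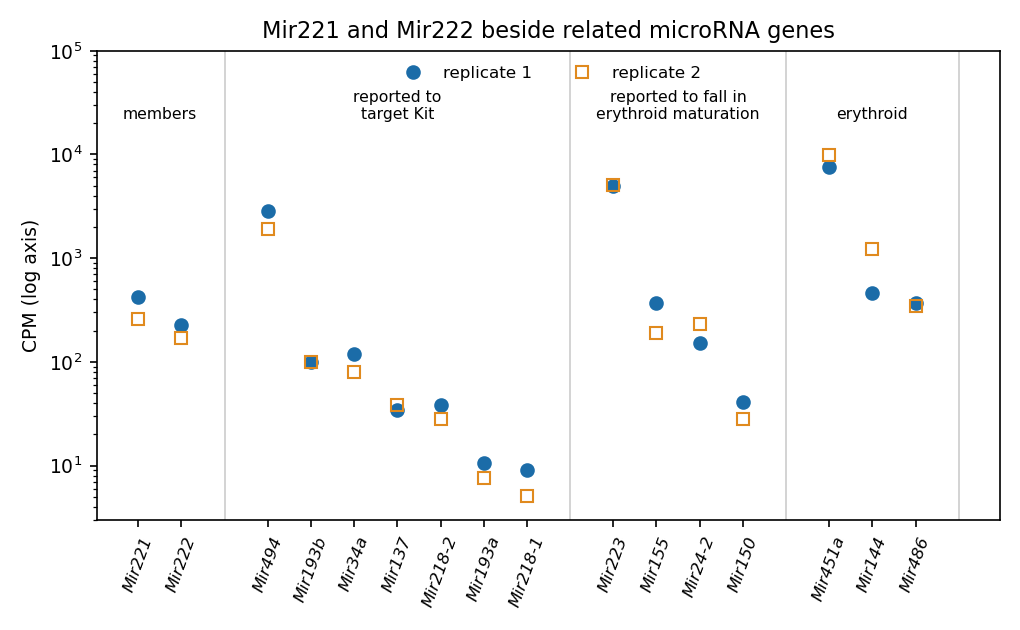
CPM (log axis) of Mir221 and Mir222 and of genes in 3 lists, with a filled point for replicate 1 and an open square for replicate 2. Mir494 stands above the members in the Kit list and the 6 others below, while Mir451a stands highest among the genes shown.

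MicroRNAs that, like the members, are reported to fall as erythroid cells mature were present over a wide range. Of 5 listed symbols 4 were names of counted genes, and all 4 were detected. Mir223, a myeloid microRNA, had 4934 and 5087 CPM in replicates 1 and 2, above both members. Mir155, known from activated lymphocytes and from progenitors, had 366 and 191 CPM, overlapping with the values of both members. Mir24-2 had 153 and 230 CPM and has a run of at least 20 bases in common with Mir3074-1, so its level can be too low. The listed symbol without a counted gene was Mir24-1, which the search for such runs therefore did not cover. Mir150, which represses Myb, had 41.0 and 28.4 CPM, below both members.

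The erythroid microRNAs stood above the members as a group. Mir451a, whose hairpin is cut by Argonaute2 and not by Dicer, had 7495 and 9793 CPM, and Mir144 of the same cluster 460 and 1214 CPM. Mir486, which is also abundant in muscle, had 372 and 343 CPM, within the range of Mir221. On its opposite strand 107 and 61 reads were counted, against at most 1 for Mir451a and Mir144. Near copies were searched among counted genes only, and 3 of 6 listed erythroid symbols were names of counted genes. Whether the level of Mir486 is too low was therefore not tested. The 3 genes summed to 12.9 times the summed level of Mir221 and Mir222 in replicate 1 and to 26.4 times in replicate 2. The list went from 8326 to 11350 CPM between the libraries, while the members' sum went from 647 to 430 CPM. In whole liver, fewer cells of a type and less RNA per cell cannot be told apart, and the part of the erythroid share in the members' lower level in replicate 2 was not tested.

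Each member was lower in replicate 2 by less than 2-fold. After scaling by trimmed means of M values (TMM), the log2 ratio of replicate 2 over replicate 1 was -0.62 for Mir221 and -0.37 for Mir222, which is 1.53-fold and 1.29-fold lower in replicate 2. An exact binomial test of the counts, two-sided and with Benjamini-Hochberg adjustment over 454 genes with at least 10 summed counts, gave an adjusted p of 1.03e-14 for Mir221 and 0.000668 for Mir222. That test knows counting noise only and compares these libraries, not conditions, and 49.1% of the tested genes passed it at an adjusted p under 0.05. With a difference of at least 2-fold required as well, neither member was called, against 7.27% of tested genes in either direction and 2.42% that were called lower in replicate 2. Under edgeR's exact test, which adds an assumed spread between pools (a biological coefficient of variation of 0.2), the adjusted p was 0.615 for Mir221 and 0.799 for Mir222. With that spread 1 of the 454 tested genes was called. The common coefficient that edgeR estimated from these libraries was 0.26. Over the 257 tested genes whose mean count reached 100, the median size of the log2 ratio was 0.35, that of Mir221 was larger than 74.3% of them and that of Mir222 larger than 52.9%. Of these 257 genes, 32 had a lower log2 ratio than Mir221 and 62 a lower one than Mir222. The binomial difference was thus above counting noise. Its size was near the median of these genes for Mir222 and above the median for Mir221.

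The groups of cell-type microRNAs moved as follows beside the members, where 7.27% of all tested genes were called. Of 9 listed leukocyte symbols 5 were names of counted genes. Summed over its genes, the leukocyte list went from 10546 to 8210 CPM with 0 of 5 genes called, led by Mir223 and Mir342. Mir223 went from 4934 to 5087 CPM and Mir342 from 5077 to 2819 CPM. By log2 ratio 1 of the 5 was higher in replicate 2, with a median of -0.52. The mesenchymal list went from 22533 to 33359 CPM with 1 of 6 tested genes called. It was led by Mir143, the called gene, which went from 11472 to 23595 CPM, and Mir214, which went from 9911 to 8782 CPM. By log2 ratio 3 of the 6 were higher in replicate 2, with a median of -0.02. The endothelial gene Mir126a, the 1 counted gene of its list, went from 57443 to 80051 CPM and was not called. The hepatocyte list, led by Mir122 and Mir148a, went from 34772 to 38093 CPM with 1 of 6 genes called, Mir194-1. By log2 ratio 2 of these 6 were higher in replicate 2, with a median of -0.37, and Mir148a went from 1725 to 1226 CPM. Mir194-1 had 48 and 8 counts, too few to be detected, and shares at least 20 bases with Mir194-2. The striated muscle list, led by Mir208b and Mir208a, went from 884 to 797 CPM. By log2 ratio 4 of its 5 tested genes were higher in replicate 2, with a median of 0.03. Of these 5 genes 1 was called, Mir133b, at 13 and 17 counts. Of its 8 counted genes 3 were at 0, Mir1a-1, Mir133a-1 and Mir133a-2. These 3 share at least 20 bases with other genes or each other, and Mir133b shares such a run with Mir133a-1 and Mir133a-2. Mir122, the defining microRNA of hepatocytes, had 30679 and 34487 CPM, above the whole of the striated muscle list. The part of these cell types in the level of the members was not tested. Of the other 7 genes reported to target Kit, 5 were lower in replicate 2 and 0 were called. Their median log2 ratio was -0.37 against 0.01 over all tested genes. The hepatocyte median was also -0.37 and the leukocyte median was lower, so this value was not particular to the Kit list.

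**Figure D5:**
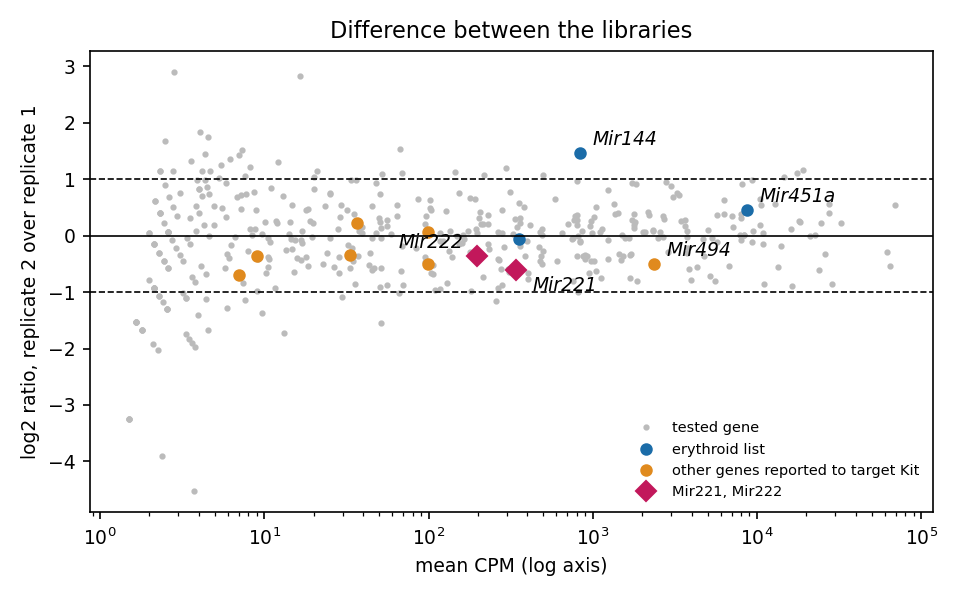
Log2 ratio of replicate 2 over replicate 1 against mean CPM (log axis) for 454 tested genes, with dashed lines at 2-fold. Mir221 at -0.62 and Mir222 at -0.37 lie between the lines, while Mir144 lies above the upper line at 1.46.

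The genes with the most similar values in both libraries were named by distance in log2(CPM + 1) over these 2 libraries. For Mir221 they were Mir20b (383 and 235 CPM in replicates 1 and 2), Mir7-1, Mir539, Mir224 and Mirlet7f-2, at distances from 0.197 to 0.344. For Mir222 they were Mir505 (221 and 171 CPM), Mir302c, Mir877, Mir208a and Mir3074-1, at distances from 0.0468 to 0.296. Mir7-1, Mirlet7f-2 and Mir3074-1 each have a run of 20 or more bases in common with 1 other counted gene. Of these 10 genes, 4 lie on the X chromosome, where 11.2% of detected genes lie, a count made after the genes were named and with no test.

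On the X chromosome 39 of 120 counted genes were detected, and Mir221 was the 20th and Mir222 the 25th by mean CPM. Mir322, which is linked to differentiation and cell cycle exit, was the highest there at 27512 ± 6765 CPM (SD, n = 2). Of all X-linked counts, Mir221 and Mir222 held 1.09% in replicate 1 and 0.613% in replicate 2. Of the 44 X-linked genes tested, 23 were lower in replicate 2, with a median log2 ratio of -0.07.

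Depth set the counting error of these values. Replicate 1 held 3344673 assigned counts and replicate 2 held 1584499, of 12750572 and 5471247 reads. Reads mapping to several places, 22.0% and 22.6% of the libraries, were not counted. No molecular identifiers are described, and the intervals and floors therefore hold counting error alone. The labels call the libraries biological replicates, and the spread between 2 pools is all that n = 2 measures.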

How the data were processed

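The deposited files hold raw counts of reads per microRNA gene in 1973 genes, which the authors made on mm10 with GENCODE M4, per the description file deposited with each library. The aligner, counter and trimming are not given in the sources used here. The column of reads on the strand of the gene was used, with 4 summary classes left out of library sizes. CPM is the count over all assigned counts of the library. Symbols and positions came from GENCODE M21 by identifier without version: 1894 genes matched, and the 79 others held 4 counts.

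Libraries were compared with an exact binomial test against TMM effective sizes (edgeR 4.0.16, R 4.3.3), with 0.5 added to each count for ratios, and the procedure was tested on simulated data. The simulated counts held counting noise only, so the behaviour of the test under spread between pools was not tested. DESeq2 1.42.0 gave size factors for an alternative. Other steps ran in Python 3.11.15 with scipy 1.17.1 and pandas 2.3.3. Named genes were the members, the 5 nearest to each in level, genes with their seed, all genes of the Kit, erythroid and erythroid maturation lists, the 2 highest of every other list, and the pairs next to the cluster in ratio. Outside this rule, and after their values were seen, the text names the neighbours in rank (Mir125b-2, Mir3072), the highest X-linked gene (Mir322), list genes that were called (Mir194-1, Mir133b) or at 0 (Mir1a-1, Mir133a-1, Mir133a-2), and near copies of named genes. The members and lists were chosen with earlier results of these data known. The lists were written from textbook knowledge. Sequences came from RefSeq (GRCm38.p6), where both members matched, and 3′ UTRs from M21 transcripts. The target list of the design held 1 further gene, which is not reported here.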

Additional observations from a re-analysis of the deposited data

How the results depend on the processing

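No paired analysis was possible because both libraries belong to 1 group. Over 8 alternatives of scaling, filter, strand column, test and pseudocount, the log2 ratio ran from -0.69 to -0.61 for Mir221 and from -0.44 to -0.35 for Mir222, and neither gene was called in any. With 1 library left out, the level of Mir221 ran from 261 to 419 CPM, that of Mir222 from 169 to 228 CPM and their ratio from 0.545 to 0.647. Over all reads of the library in place of assigned counts, the levels were 92.7 and 54.4 per 1000000 reads, by construction. The number of called genes fell from 33 to 16 with at least 100 summed counts, where fewer genes are tested. It was 1 under an assumed coefficient of variation of 0.2 (Mir6538, named after its value was seen), where 51 genes had an unadjusted p under 0.05. Counting both strands gave shares of 3.31% for the hepatocyte list (3.64% before), 0.0763% for striated muscle (0.0840%) and 0.501% for the erythroid maturation list (0.552%), as reads on the opposite strand joined the total.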
